A study of Mus musculus with 6 samples.

Results

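Condensin and type II topoisomerases shape chromosomes for division, and their 10 mouse genes were all measured in neurospheres from Ts1Cje mice and disomic littermates. The genes are Smc2 and Smc4, which are shared by both condensin complexes, Ncapd2, Ncapg and Ncaph of condensin I, Ncapd3, Ncapg2 and Ncaph2 of condensin II, and the topoisomerases Top2a and Top2b. They were chosen by symbol, as every probe set of the array that the platform annotation assigns to one of these genes alone, which gave 28 of 45037 probe sets. In the order above they lie on chromosomes 4, 3, 6, 5, 2, 9, 12, 15, 11 and 14. Neurospheres are clusters that neural stem and progenitor cells form in suspension while growth factors keep them dividing. They were grown for 7 days from tissue lining the lateral ventricles of female mice aged 84 days, in 3 cultures per genotype, with 1 Affymetrix mouse genome array per culture. The Ts1Cje animals, on a C57BL/6 background, carry an extra copy of distal chromosome 16, translocated onto the distal end of chromosome 12. The disomic animals are their C57BL/6 littermates, in 3 pairs, and the labels do not say which cultures form a pair. The labels call the cultures biological replicates and do not say how many mice went into each.

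In dividing cells the SMC2 and SMC4 proteins form a ring-like ATPase that is closed by a kleisin subunit (NCAPH or NCAPH2), which also holds a pair of HEAT-repeat subunits. Condensin II is nuclear through interphase and begins to fold chromosomes in prophase, whereas condensin I reaches the chromosomes after the nuclear envelope breaks down. Topoisomerase II cuts and reseals both strands of DNA, so that sister chromatids can be untangled. TOP2A is made mainly in cycling cells and TOP2B also in cells that have left the cycle.

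The values are log2 intensities, M is the mean of the Ts1Cje arrays minus the mean of the disomic arrays, and A is the mean over all 6 arrays. Probe sets with A above 5 are called expressed, and 21 of the 28 passed, with at least 1 for each of the 10 genes. The 7 others had A between 2.23 and 4.91. Of these, Smc2 had 3, and Ncapd2, Ncapd3, Top2a and Top2b had 1 each, and their M values ran from -0.28 to -0.003 with overlapping groups. The precision is limited by the number of arrays.

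The extra chromosome segment was visible on every array labelled Ts1Cje. The 80 expressed probe sets of chromosome 16 beyond Sod1 had a median M of 0.54, a fold of 1.45, and none of the 10 genes lies there. Of the stem cell and astrocyte markers 7 of 8 were expressed, whereas none of the 7 microglial, 5 ependymal and 6 vascular markers was. Of 7 measured oligodendrocyte lineage markers 5 were expressed (Cnp, Cspg4, Mbp, Pdgfra and Sox10), with M from -0.72 to -0.0023 and overlapping groups. Among neuronal markers only Map2 was expressed, with Dcx, Rbfox3 and Stmn2 close to the lowest value of the arrays. Among the condensin and topoisomerase II probe sets, 1 array of each genotype stood apart. Ts1Cje replicate 2 was the lowest array on 12 of the 21 expressed probe sets, and disomic replicate 3 was the highest on 14.

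Each of the 10 genes had a lower mean in the Ts1Cje neurospheres when represented by its brightest probe set. For 10 of 10 genes M was below 0, against 46.1% of the 8947 expressed genes. The median M was -0.37, a fold of 0.774, beside a median of 0.02 over all expressed genes. A moderated t (limma) below -4 was reached by 0 of the 10 genes, against 0.693% of expressed genes, and one above 4 by 0, against 1.13%. For 2 of 10, Smc2 and Ncaph2, every Ts1Cje array was below all disomic arrays, against 5.16%. Over expressed probe sets 20 of 21 had M below 0, against 48.4% of the 16371 expressed probe sets. A moderated t below -4 was reached by 1 of 21, against 0.812%, and one above 4 by 0, against 0.965%. The groups were separate, with Ts1Cje lower, on 3 of the 21, against 5.21%. The same 3 had an unadjusted p under 0.05 in limma with Ts1Cje lower, against 2.88% that were lower at that level (471 of 16371). Another 540 expressed probe sets were higher at that level, and 0 of the 21 were. An adjusted p of 0.05 over the whole array was passed by 0 of 21, against 0.00611% (the smallest adjusted p among the 21 was 1.0). Many of these genes are transcribed in dividing cells and can vary together, so these counts cannot be read as counts over independent genes. In a culture of mixed cells, fewer cells in division and less RNA per dividing cell cannot be told apart. The signs did not all hold without single arrays. The number of expressed probe sets with M below 0 was 17 without disomic replicate 3 and 18 without Ts1Cje replicate 2, and the number of genes was 9 in both cases.

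**Figure D1:**
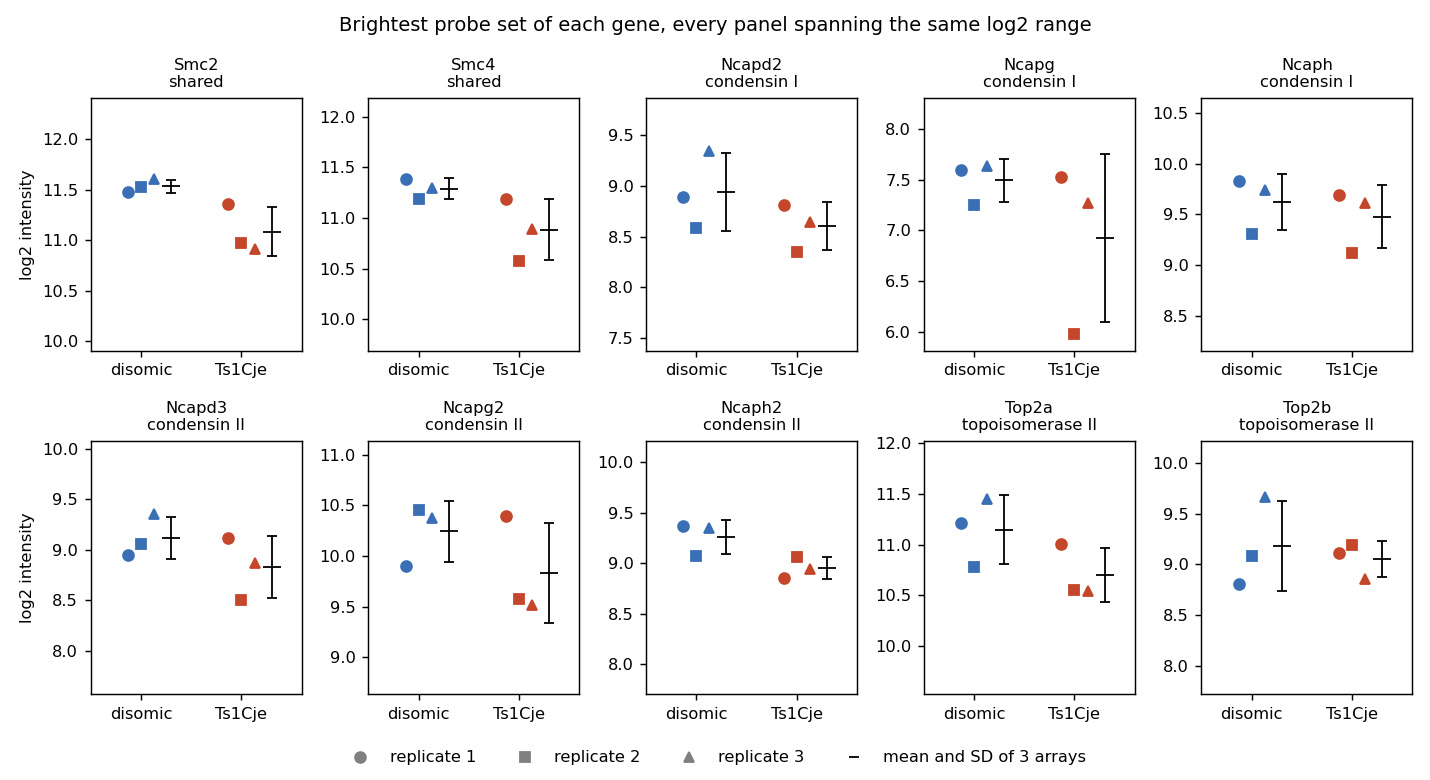
Log2 intensity of the brightest probe set of each of the 10 genes, with a symbol per array (the shape gives the replicate number) and the mean and SD of 3 arrays. All panels span the same log2 range. The groups are separate for Smc2 and Ncaph2 only, and Ts1Cje replicate 2 lies far below the other arrays for Ncapg.

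Among the subunits that both complexes share, Smc2 showed the clearest separation. Its brightest probe set (1448635_at) read 11.47, 11.52 and 11.60 on the disomic arrays and 11.36, 10.97 and 10.91 on the Ts1Cje arrays. All Ts1Cje arrays were thus below all disomic arrays, and the disomic arrays lay within a narrow range. The means were 11.53 ± 0.07 and 11.08 ± 0.24 (SD, n = 3), with M = -0.45 (standard error 0.14), or 26.8% lower. The 95% confidence interval of M was -0.83 to -0.08 and the moderated t -3.23 (limma, adjusted p = 1.0). Ts1Cje replicate 1 was the array nearest to the disomic ones, and without it the moderated t was -11.46 (adjusted p = 0.675). The other expressed Smc2 probe set gave M = -0.26 with a standard error of 0.49. Its disomic arrays ran from 7.86 to 9.59, and M was 0.16 without disomic replicate 3.

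Smc4, the partner of Smc2 in the ring, read 11.39, 11.19 and 11.30 on the disomic arrays and 11.19, 10.58 and 10.89 on the Ts1Cje arrays. Its highest Ts1Cje array was level with its lowest disomic array to the second decimal, so that the groups met without separating. M was -0.40 with a standard error of 0.18 (95% confidence interval -0.88 to 0.07), or 24.5% lower. The other Smc4 probe sets had M values of -0.27 and -0.42. The 3 probe sets of this gene thus lay within 0.14 of each other, although the first of these had an M of 0.066 without Ts1Cje replicate 2. The moderated t of the brightest was -2.28 over all arrays and -4.21 without Ts1Cje replicate 1. Without any other single array it lay between -2.10 and -1.63.

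The genes of condensin I had means that were lower in Ts1Cje, with overlapping groups on all 5 expressed probe sets. Ncapg encodes a HEAT-repeat subunit and had the lowest M of the 10 genes over all arrays. It read 7.60, 7.25 and 7.64 on the disomic arrays and 7.52, 5.97 and 7.28 on the Ts1Cje arrays. Only Ts1Cje replicate 2 was below the disomic range. M was therefore -0.57 with a standard error of 0.48, and the 95% confidence interval ran from -1.86 to 0.71. Without that array M was -0.097. The second Ncapg probe set had M = -0.34, which became 0.021 without Ts1Cje replicate 2.

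Ncapd2, the other HEAT-repeat subunit of condensin I, read 8.89, 8.58 and 9.34 on the disomic arrays and 8.81, 8.35 and 8.65 on the Ts1Cje arrays, with M = -0.33 (standard error 0.25). Again only Ts1Cje replicate 2 fell outside the range of the disomic arrays. M was -0.13 without disomic replicate 3 and -0.51 without disomic replicate 2. Ncaph, the kleisin of condensin I, read 9.83, 9.31 and 9.74 on the disomic arrays and 9.70, 9.12 and 9.61 on the Ts1Cje arrays. Its M of -0.15 (standard error 0.23) was the nearest to 0 of the condensin genes, and it was 0.029 without Ts1Cje replicate 2. The dimmer Ncaph probe set had M = -0.24 with a standard error of 0.16.

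Condensin II held the single probe set with a moderated t past 4, for its kleisin Ncaph2. On the brightest Ncaph2 probe set (1423698_at) the disomic arrays read 9.37, 9.07 and 9.35 and the Ts1Cje arrays 8.86, 9.07 and 8.94. The groups did not overlap, but Ts1Cje replicate 2 and disomic replicate 2 differed only in the third decimal. M was -0.31 with a standard error of 0.11 (95% confidence interval -0.60 to -0.01), or 19.2% lower. The dimmest Ncaph2 probe set (1423699_at) read 5.45, 5.48 and 5.62 on the disomic arrays and 5.26, 5.25 and 5.24 on the Ts1Cje arrays. Its M of -0.27 was small, and its moderated t of -5.13 (limma, adjusted p = 1.0) came with an SD of only 0.01 among the Ts1Cje arrays. At A = 5.38 it lay just above the level that counts as expressed, and without Ts1Cje replicate 3 the moderated t was -3.96. It was -3.62 with a prior variance that follows intensity and -2.29 with a fit over expressed probe sets alone. The remaining Ncaph2 probe sets had M values of -0.19 and -0.46 and overlapping groups, so that all 4 were below 0.

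Ncapg2, a HEAT-repeat subunit of condensin II, has a single probe set on the array. It read 9.90, 10.45 and 10.37 on the disomic arrays and 10.40, 9.57 and 9.51 on the Ts1Cje arrays. Ts1Cje replicate 1 was as high as the upper disomic arrays, while the other Ts1Cje arrays were below all disomic ones. M was -0.41 with a standard error of 0.32. The gene lies on distal chromosome 12, where the Ts1Cje segment is joined. In the GRCm38.p6 annotation 3 protein-coding genes separate it from Dnah11, the one gene past an adjusted p of 0.05 in these data (limma). Dnah11 was higher in Ts1Cje, with M = 9.21. Of the genes in between, 2 were expressed, Cdca7l with M = -3.65 and Ptprn2 with M = -0.50. The supporting text of the study cites a report of a chromosome 12 deletion in Ts1Cje that includes the Dnah11 locus. It does not say whether the deletion reaches Ncapg2. The part of position or deletion in the Ncapg2 value was not tested.

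Ncapd3, the other HEAT-repeat subunit of condensin II, read 8.95, 9.06 and 9.35 on the disomic arrays and 9.12, 8.51 and 8.87 on the Ts1Cje arrays, with M = -0.29 (standard error 0.20). Ts1Cje replicates 2 and 3 were below all disomic arrays, and Ts1Cje replicate 1 was among them. Its second expressed probe set had the same value of 5.48 on 3 arrays, 1 of them disomic. The M of -0.37 of that probe set came from disomic replicate 3 at 6.58, and it was 0.013 without that array.

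Of the topoisomerases, Top2a had the lower M. Its brightest probe set read 11.21, 10.78 and 11.45 on the disomic arrays and 11.01, 10.55 and 10.54 on the Ts1Cje arrays. The groups overlapped through Ts1Cje replicate 1, and the other Ts1Cje arrays were below all disomic arrays. M was -0.45 with a standard error of 0.24 (95% confidence interval -1.10 to 0.20), or 26.7% lower. The second expressed probe set had M = -0.54 with a standard error of 0.56.

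Top2b, the form that is not restricted to cycling cells, read 8.80, 9.08 and 9.67 on the disomic arrays and 9.12, 9.19 and 8.85 on the Ts1Cje arrays. All Ts1Cje arrays lay inside the disomic range. M was -0.13 with a standard error of 0.26, and it was 0.11 without disomic replicate 3. The second expressed Top2b probe set, with M = 0.02, was the only one of the 21 above 0, and its M was -0.34 without disomic replicate 1, -0.014 without Ts1Cje replicate 1 and -0.021 without Ts1Cje replicate 2. On the brightest probe sets the M of Top2a minus that of Top2b was -0.32. That difference was not tested, and it is smaller than the SD of the log2 difference between both genes among the disomic arrays (0.39).

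**Figure D2:**
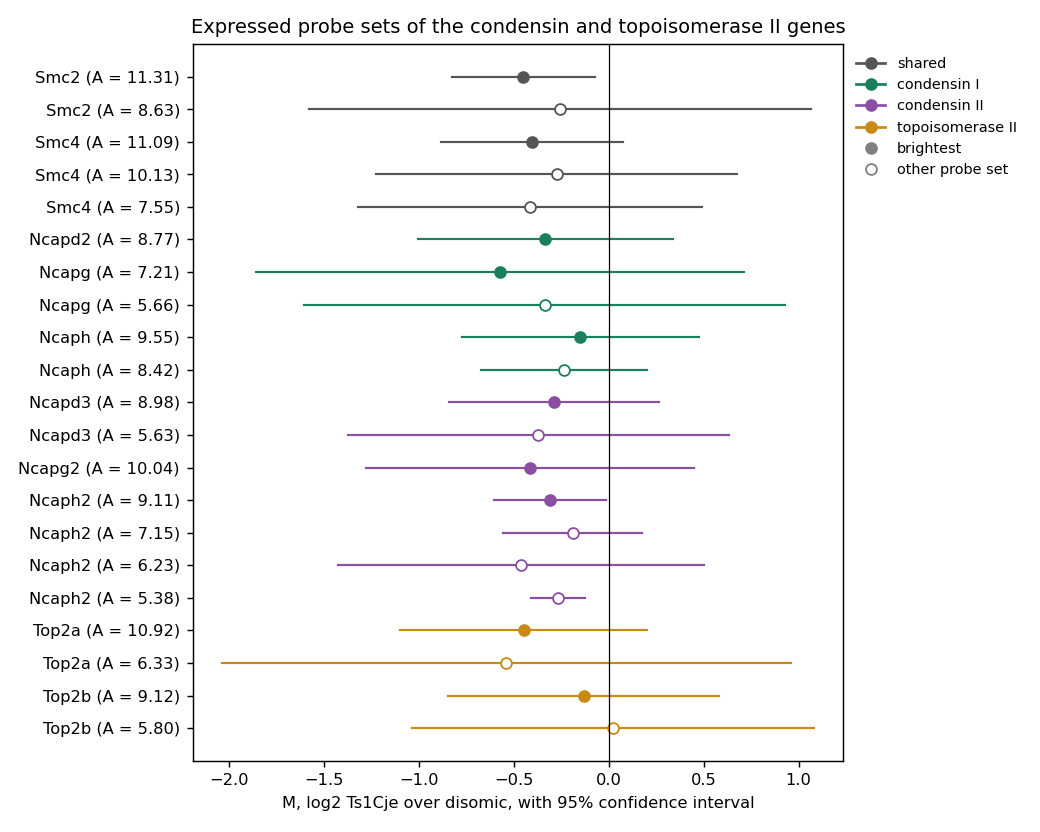
M with its 95% confidence interval from limma for the 21 expressed probe sets, by class, with filled symbols for the brightest probe set of a gene and A in brackets. All but the dimmer Top2b probe set lie below 0, and the intervals of 3 probe sets, of Smc2 and Ncaph2, do not reach 0.

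The promoters of these genes hold different numbers of the short motifs that are known from cell cycle genes. The CHR element (TTTGAA) is bound by the complexes that turn genes on in G2 and mitosis, and CCAAT boxes are bound by NF-Y. The motif of the E2F factors, which act at the start of S phase, was searched as TTTGGCG and in forms that differ from it at the middle pair of bases, namely TTTGCCG, then TTTCGCG, and finally TTTCCCG. Both strands of the 250 bases before the start site were searched, from the RefSeq promoter table on GRCm38.p6, which holds 10 promoters of 9 of the genes (Ncapd3 has a pair, and Smc4 was not matched). The motifs share no bases in the sequences printed here. The CHR element was present in 6 of the 10 promoters, against 15.99% of all 32851 promoters, CCAAT in 5, against 33.8%, and an E2F motif in 3, against 5.51%. The promoters of Top2a and Top2b are shown because both enzymes do the same reaction with different M values, and those of Ncapg and Ncapg2 because they are paralogues of the complexes compared next. Capitals mark the motifs, and each runs 5′ to 3′ along the gene.
Top2a (chr11:99024190-99024439, minus strand): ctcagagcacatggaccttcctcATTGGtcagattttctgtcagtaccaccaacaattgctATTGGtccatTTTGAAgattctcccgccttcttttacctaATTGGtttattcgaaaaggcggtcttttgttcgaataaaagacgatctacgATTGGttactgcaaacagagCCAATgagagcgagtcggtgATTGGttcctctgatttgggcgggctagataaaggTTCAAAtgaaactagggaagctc
Top2b (chr14:16364956-16365205, plus strand): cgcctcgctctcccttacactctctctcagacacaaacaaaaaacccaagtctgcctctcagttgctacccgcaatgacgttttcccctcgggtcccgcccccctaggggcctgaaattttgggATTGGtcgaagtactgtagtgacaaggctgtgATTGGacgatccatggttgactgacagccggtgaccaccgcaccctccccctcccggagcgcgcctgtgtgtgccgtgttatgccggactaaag
Ncapg (chr5:45669675-45669924, plus strand): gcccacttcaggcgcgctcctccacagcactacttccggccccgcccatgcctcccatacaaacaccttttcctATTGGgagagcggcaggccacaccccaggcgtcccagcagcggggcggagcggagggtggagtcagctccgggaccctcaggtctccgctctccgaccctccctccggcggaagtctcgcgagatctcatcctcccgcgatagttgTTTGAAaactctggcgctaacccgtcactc
Ncapg2 (chr12:116405186-116405435, plus strand): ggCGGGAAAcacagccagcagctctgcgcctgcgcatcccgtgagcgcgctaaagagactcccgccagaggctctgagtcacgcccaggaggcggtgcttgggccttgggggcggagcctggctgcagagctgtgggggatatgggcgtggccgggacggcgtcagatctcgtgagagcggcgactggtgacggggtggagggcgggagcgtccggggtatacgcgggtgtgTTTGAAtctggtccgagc

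The Top2a promoter held 6 CCAAT boxes and 2 CHR elements, whereas that of Top2b held 2 CCAAT boxes and 0 CHR elements. Among all promoters 0.213% held 5 or more CCAAT boxes. A CHR element stood within the last 40 bases before the start in Top2a (23 bases before it), Ncapg (30) and Ncapg2 (18), which was the case for 2.04% of all promoters. Both Ncapg and Ncapg2 thus have the element near their start. Of the genes with separate groups, Ncaph2 had none of the 3 motifs in its window, and Smc2 had a CHR element and a CCAAT box. These matches describe the sequences only, and a relation between motifs and M was not tested.

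Condensin I and condensin II were then set against each other. The median M was -0.33 over the 3 condensin I genes and -0.31 over the 3 condensin II genes, each on the brightest probe set. On the separate arrays the mean deviation of the condensin I genes from their 6-array mean was 0.26, -0.13 and 0.40 in disomic and 0.17, -0.70 and 0.00 in Ts1Cje cultures. The mean deviation of the condensin II genes was 0.03, 0.15 and 0.32 in disomic and 0.08, -0.32 and -0.26 in Ts1Cje cultures. On both, the genotypes overlapped, and Ts1Cje replicate 2 was the lowest array. Without it the median M was -0.10 for condensin I and -0.29 for condensin II, and without disomic replicate 3 it was -0.13 and -0.26, so that condensin II had the lower median. Without disomic replicate 2 condensin I had the lower median, with -0.51 against -0.32.

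Paralogues were also compared directly, by the difference in M between the condensin I gene and its condensin II counterpart. The difference was -0.05 for Ncapd2 against Ncapd3, -0.16 for Ncapg against Ncapg2 and 0.16 for Ncaph against Ncaph2. For all 3 pairs the genotypes overlapped (two-sided exact permutation p = 0.9, 0.8 and 0.5, each with an adjusted p of 0.9 over the 3 pairs). The smallest p that this test allows with 3 against 3 arrays is 0.1, so it could not pass 0.05 and leaves the question of a difference unanswered. Leaving out 1 array moved the differences to between -0.19 (without disomic replicate 2) and 0.041 (without disomic replicate 3) for Ncapd2 against Ncapd3. The range was -0.49 (without Ts1Cje replicate 3) to 0.19 (without Ts1Cje replicate 2) for Ncapg against Ncapg2, and -0.00059 (without Ts1Cje replicate 1) to 0.39 (without Ts1Cje replicate 2) for Ncaph against Ncaph2. The SD of these differences among 3 arrays ranged from 0.07 for Ncapd2 against Ncapd3 in Ts1Cje to 0.68 for Ncapg against Ncapg2 in Ts1Cje.

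**Figure D3:**
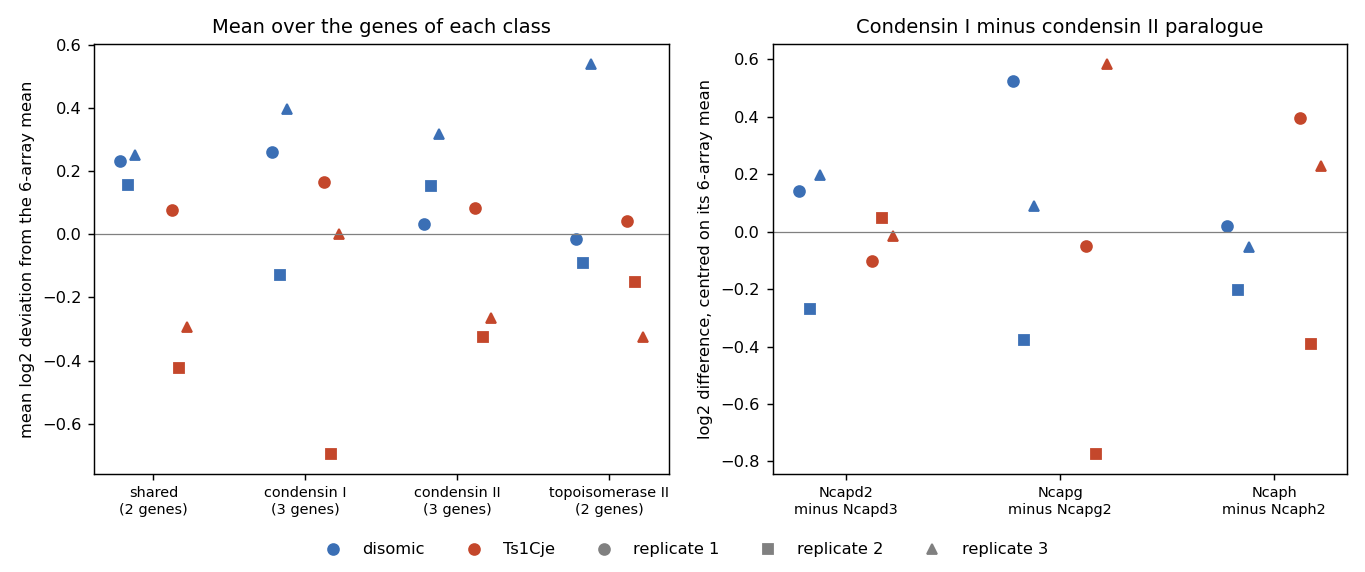
Left, mean log2 deviation from the 6-array mean over the genes of each class, and right, log2 difference of each condensin I gene and its condensin II paralogue, centred on its 6-array mean, with a symbol per array. The genotypes are separate only for the shared subunits (disomic 0.16 to 0.25, Ts1Cje -0.42 to 0.08) and overlap for all 3 pairs.

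The arrays of one genotype also differed from each other. Over the brightest probe sets of the 10 genes, the mean deviation was 0.13, 0.02 and 0.37 on the disomic arrays and 0.10, -0.42 and -0.20 on the Ts1Cje arrays. Ts1Cje replicate 1 was inside the disomic range for 8 of 10 genes. Ts1Cje replicate 2 was below every disomic array for 9 genes, Top2b being the exception, and Ts1Cje replicate 3 for 6. The mean of Ts1Cje replicate 1 lay between those of disomic replicates 1 and 2.

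Genes with array profiles most like those of Top2a and Top2b were sought among 8937 other expressed genes. Likeness was measured as the root mean square difference of log2 values over the 6 arrays, after the mean of each probe set was subtracted. Nearest to Top2a were Pimreg (0.05), Blm, a helicase that acts with topoisomerase III (0.10), the histone variant gene H2ax (0.11), the nuclear pore gene Nup107 (0.11) and Skp2 of the SCF ubiquitin ligase (0.11). The SD of Top2a itself over the arrays was 0.37. Nearest to Top2b were D930016D06Rik (0.05), Phf14 (0.05), 4833420G17Rik (0.08), Ppil2 (0.09) and Pwwp2a (0.09), where the SD of Top2b was 0.31. The M values of the Top2a neighbours ran from -0.49 to -0.31 and those of the Top2b neighbours from -0.20 to just under 0. Their closeness to the M of Top2a and Top2b follows from the way they were picked, on the same 6 arrays. With 6 arrays many profiles lie close together, and no common control is implied.

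Genes that act on mitotic chromatin together with condensin were described next. Of 14 such regulators of condensation 13 had a probe set of their own and were expressed. M was below 0 for 11 of them, against 46.1% of expressed genes, and the median M was -0.51. The groups were separate for 9, with 8 lower in Ts1Cje and 1 higher, where 5.16% of expressed genes were lower and 6.12% higher in this way. A moderated t below -4 was reached by 1, Plk1, a mitotic kinase that phosphorylates condensin, and above 4 by 1, Ppp2r1a, a scaffold subunit of protein phosphatase 2A, against 0.693% and 1.13% of expressed genes. Plk1 read 10.10, 9.71 and 9.76 on the disomic arrays and 9.36, 8.80 and 8.87 on the Ts1Cje arrays, with M = -0.85 (standard error 0.21). Ppp2r1a read 13.09, 12.92 and 13.06 on the disomic and 13.26, 13.29 and 13.34 on the Ts1Cje arrays, with M = 0.28 (standard error 0.06). Both had separate groups and an adjusted p of 1.0 in limma. The count below -4 was 3 without Ts1Cje replicate 1, 2 without Ts1Cje replicate 2, and 0 without Ts1Cje replicate 3 or any one of the 3 disomic arrays. Without Ts1Cje replicate 2 or 3, Ppp2r1a no longer passed.

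Aurkb, the kinase of the chromosomal passenger complex, had M = -1.04 with a standard error of 0.27 and a moderated t of -3.80. It read 8.91, 8.41 and 8.26 on the disomic arrays and 7.89, 7.37 and 7.19 on the Ts1Cje arrays. The other members of that complex, Birc5, Incenp and Cdca8, had M values of -0.66, -0.65 and -0.51, each with separate groups. The remaining genes with separate groups were Cdk1, the main kinase of mitotic entry (M = -0.67), Nusap1 (M = -0.58) and Mcph1, an inhibitor of condensin II (M = -0.44). Mki67, a marker of cycling cells whose protein coats mitotic chromosomes, had M = -0.41, with 11.80, 11.54 and 12.09 on the disomic arrays and 11.68, 11.09 and 11.44 on the Ts1Cje arrays. Its standard error was 0.23 and its groups overlapped. The M values of the 10 condensin and topoisomerase II genes lay on both sides of that of Mki67, from -0.57 for Ncapg to -0.13 for Top2b.

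Cohesin is the related SMC complex that holds sister chromatids together. All 17 listed genes of cohesin and its regulators were expressed, and the median M was -0.13. M was below 0 for 12, against 46.1% of expressed genes. A moderated t below -4 was reached by 0 of them, against 0.693% of expressed genes, and one above 4 by 0, against 1.13%. The moderated t values farthest from 0 were those of Pds5b, which regulates cohesin on chromatin (M = -0.17, t = -3.39), Cdca5, the sororin gene (M = -0.45, t = -2.78), and Espl1, the separase gene (M = -0.42, t = -2.20). Each of these had separate groups, as had Sgo1, which protects centromeric cohesin (M = -0.75), so that 4 of 17 were separate and lower, against 5.16% of expressed genes. Pds5b was at 10.27, 10.27 and 10.22 on the disomic and 10.16, 10.08 and 9.98 on the Ts1Cje arrays. The core subunits Smc1a, Smc3 and Rad21 had M values of -0.13, -0.069 and -0.15, with overlapping groups.

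Of the SMC5-SMC6 complex all 6 genes were expressed, with a median M of -0.10, and Nsmce1 (M = -0.25), Smc5 (M = -0.24) and Nsmce3 (M = -0.17) had the moderated t values farthest from 0. Of other topoisomerases and their partners 6 of 9 were expressed, with a median M of -0.15. Tdp1, which removes trapped topoisomerase I, had M = -0.34, Blm had M = -0.36 and Rmi1 M = -0.18. The groups were separate for Tdp1, 1 of the 6, against 5.16% of expressed genes. No gene of these lists had a moderated t past 4, where 0.693% of expressed genes were below -4 and 1.13% above 4. The medians of the lists are given beside 0.02 for all expressed genes and were not compared by a test.

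**Figure D4:**
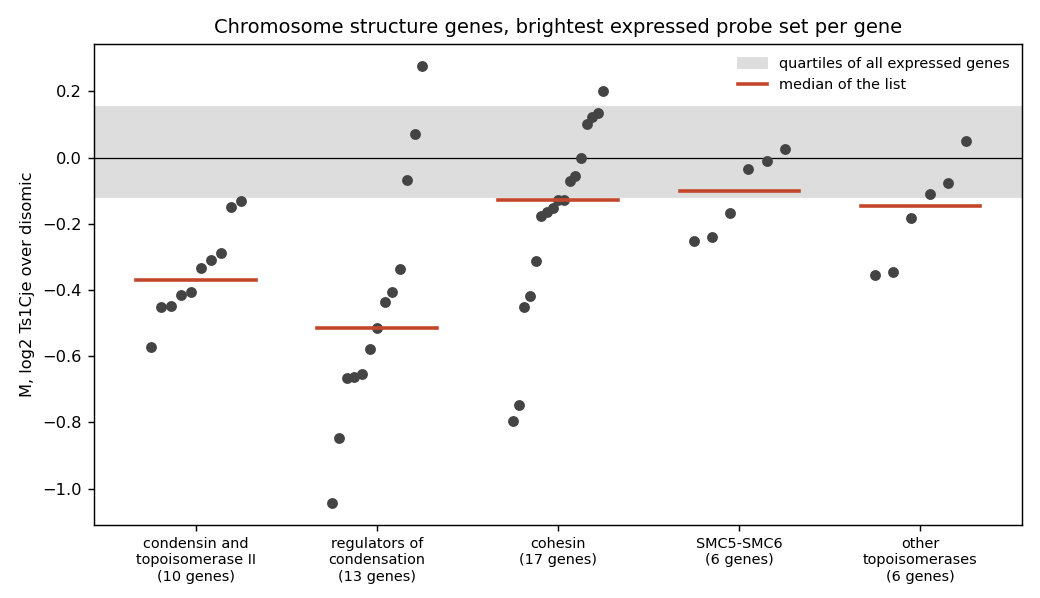
M of each expressed gene (brightest probe set) for the 10 condensin and topoisomerase II genes and for lists of other chromosome structure genes, with red lines for medians and grey for the quartiles of all 8947 expressed genes (-0.12 and 0.15). All 10 condensin and topoisomerase II genes lie below the grey band (median -0.37), and the regulators of condensation have a lower median (-0.51). Of the 17 cohesin genes 12 lie below 0 and 4 above it.

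Control probe sets also differed between the genotypes, whereas most expressed stem cell and astrocyte markers had overlapping groups. The signal of the 3′ probe set minus that of the 5′ probe set of actin was 1.53, 1.83 and 1.66 on the disomic arrays and 1.94, 1.87 and 2.26 on the Ts1Cje arrays. The 18S ribosomal RNA control was 10.24, 11.32 and 11.74 on the disomic and 11.97, 12.36 and 12.33 on the Ts1Cje arrays. The Ts1Cje arrays were all above the disomic arrays on both, and also for the 3′ minus 5′ difference of Gapdh (2.18 ± 0.10 and 2.34 ± 0.09, SD, n = 3). For Gapdh the groups nearly met, with 2.285 on disomic replicate 1 and 2.290 on Ts1Cje replicate 3. Of the 7 expressed stem cell and astrocyte markers 6 had M above 0, where 4822 of all 8947 expressed genes did, and their median M was 0.11. Aqp4, an astrocyte water channel, had M = 0.81 and was the only 1 of the 7 with separate groups, against 6.12% of expressed genes. The summed linear intensity of the 8 markers of this list was 62021 to 74904 on the disomic and 69326 to 76507 on the Ts1Cje arrays, so that the ranges overlapped. The part of these differences in the lower condensin and topoisomerase II means was not tested.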

How the data were processed

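RNA from 3 Ts1Cje and 3 disomic neurosphere cultures was labelled by the Two-Cycle Target protocol and hybridised to Affymetrix mouse genome arrays. The table deposited by the authors holds 1 log2 intensity for each probe set and array, made with gcRMA, whose version is not given in the sources used here. This algorithm corrects for background by probe base composition and normalizes between arrays, and neither step could be repeated. Genotype alone was modelled in limma 3.58.1 (R 4.3.3) over 45037 probe sets, 64 control probe sets being left out. The levels used for expression and for the moderated t were taken from the text of the study. Tests were two-sided, with Benjamini-Hochberg adjustment over all probe sets, and the prior degrees of freedom were 0.336. The steps were tested on simulated data. Genes were named from the platform annotation, which gives 34945 probe sets 1 symbol, 932 several and 9160 none, and each is represented by its brightest probe set. The members and lists were chosen with earlier results of these data known. From each list of chromosome structure genes the 3 largest moderated t values are named, together with genes chosen afterwards for comparison. The latter are the other separate genes among the regulators, Mki67, Sgo1, Mau2, the cohesin core, Aqp4, the oligodendrocyte markers and chromosome 12 genes. Tables used Python 3.11.15, pandas 2.3.3 and SciPy 1.17.1, and figures matplotlib 3.10.9. Alternative settings were cyclic loess, array weights, an intensity-dependent prior variance, other levels for expression, a fit over expressed probe sets averaged probe sets per gene, the fit without each array in turn and a block for replicate numbers.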

Additional observations from a re-analysis of the deposited data

How the results depend on the processing

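Counts of a few genes at a moderated t of 4 moved with several settings, and values of M, of its medians and of the paralogue differences moved with single arrays, as given with the results. Beside 1 expressed condensin or topoisomerase II probe set below -4 there were 0 with a prior variance that follows intensity, with a fit over expressed probe sets only or with expression set above 6, and 0 to 3 when single arrays were left out. Gene counts below -4 ranged from 0 to 2 without single arrays for these genes, 0 to 2 for cohesin, 0 to 1 for other topoisomerases and 0 to 3 for regulators of condensation, and above 4 from 0 to 1 for SMC5-SMC6 and 0 to 1 for the regulators. With cyclic loess 1 cohesin gene passed below -4. Beside 1 regulator below -4 there were 2 with array weights, 2 with a fit over expressed probe sets and 2 with averaged probe sets. Above 4 there was 1 with array weights, as in the main fit. With a fit over expressed probe sets and with averaged probe sets 0 were above 4. Same-numbered arrays did not deviate together (correlations of deviations -0.17, -0.03 and 0.13), which gives no sign that the numbers mark the 3 littermate pairs, and the labels do not say whether they do. With the replicate block 2 probe sets and 1 gene of the condensin and topoisomerase II set passed below -4, the gene being Ncaph (moderated t -7.87, adjusted p = 1.0 in limma), with 3 cohesin, 1 SMC5-SMC6 and 5 regulator genes. The shares of all expressed genes past 4 are given for the main fit only. Whether a setting moved these genes more than the others can therefore not be read from the counts. M of some single probe sets changed sign without 1 array. Over all single omissions it ranged from -0.71 to 0.16 for the dimmer Smc2 probe set and from -0.32 to 0.11 for the brighter Top2b one, with the highest value without disomic replicate 3, and from -0.59 to 0.013 for the dimmer Ncapd3 one, also highest without disomic replicate 3. It ranged from -0.47 to 0.066 for a Smc4 probe set, from -0.65 to 0.021 for the dimmer Ncapg one and from -0.31 to 0.029 for the brighter Ncaph one, each highest without Ts1Cje replicate 2. The dimmer Top2b probe set ranged from -0.34 without disomic replicate 1 to 0.36 without disomic replicate 3, with -0.014 and -0.021 without Ts1Cje replicates 1 and 2. The causes of these shifts were not tested.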
